A study of Mus musculus with 12 samples.

Results

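RNA of dorsal root ganglia (DRG), which hold the cell bodies of the sensory neurons of trunk and limbs, was compared between zeitgeber time (ZT) 20 and ZT8. Zeitgeber time is counted in hours from lights on, so these times lie 12 h apart. The comparison rests on 6 of the 12 libraries of the study, 3 labelled ZT20 and 3 labelled ZT8, and is described over the 25809 genes that passed a filter on low values. Animals of both groups were male C57BL/6J mice of 6 to 12 weeks, labelled naive, from which ganglia L1 to L6 were taken; no transgene, deletion or drug is named for either group. The remaining 6 libraries, 3 of ZT14 and 3 of ZT2, helped to estimate the spread and gave a second pair of times 12 h apart. The labels number the replicates but do not say that they came from separate mice, so the p-values reflect no more than the variation among libraries, which may be technical. Library numbers follow the times of collection, so a batch and the time of day cannot be told apart.

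As background, the circadian clock of a cell is a feedback loop of transcription. BMAL1 (gene Arntl) pairs with CLOCK or NPAS2 and binds E-box motifs to switch on genes of its own repressors, the period and cryptochrome proteins among them. The same loop drives Nr1d1 and Nr1d2, which encode the REV-ERB receptors that repress Arntl through the RRE motif, where the ROR receptors activate. It also drives the PAR bZIP factors DBP, TEF and HLF, which activate genes through the D-box motif, a site that NFIL3 represses. The title of the series asks about clock genes in nociceptors, the sensory neurons that respond to painful stimuli.

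The summed estimated counts of the 6 libraries ran from 89.8 to 125.0 in units of 1000000, and 28413 to 29355 genes had a value of 1 or more. The deposited values behaved like coverage rather than numbers of reads, a reading that rests mostly on short genes. CPM (counts scaled to a normalized library total of 1000000) may thus already be a level per length. The read depth itself is unknown. Neuronal markers were high in all 6 libraries, as the label of the tissue requires: Tubb3, the neuronal tubulin, had 3676, 3742 and 3669 CPM in the ZT20 libraries, against 3579.6, 3756 and 3476 CPM in the ZT8 libraries. The 20 skeletal muscle markers summed to 1432, 209 and 351 CPM in ZT20 replicates 1 to 3, against 374, 280 and 700 CPM in ZT8 replicates 1 to 3 (values are in this replicate order throughout). Pvalb is among them and is also in the list of touch and proprioceptor neurons, so the muscle sum can hold some neuronal RNA. The highest muscle sum was that of ZT20 replicate 1 and the lowest that of ZT20 replicate 2. Bulk RNA cannot tell fewer cells of a type from less RNA per cell, here or below.

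Every gene that differed between ZT20 and ZT8 was a clock gene in edgeR's quasi-likelihood test after Benjamini-Hochberg adjustment at 0.05. There were 6 of them, 0.0232% of the genes tested. Arntl was the gene that rose, 0.00387% of all tested, and Nr1d1, Nr1d2, Ciart, Dbp and Per3 were the 5 that fell, 0.0194%. The next gene had an adjusted p of 0.149. At an unadjusted p under 0.05 there were 742 genes higher at ZT20 (2.87%) and 622 lower (2.41%), together 1364 (5.28%), and the median log2 fold change of all genes was 0.0016. Among the 11861 genes with at least 5 CPM, 11194 (94.38%) had a 95% interval of the fold change that lay wholly within 1.5-fold in either direction. These values are from edgeR. DESeq2 called 68 of the 25809 genes, and genes outside the clock lists were among them.

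**Figure D1:**
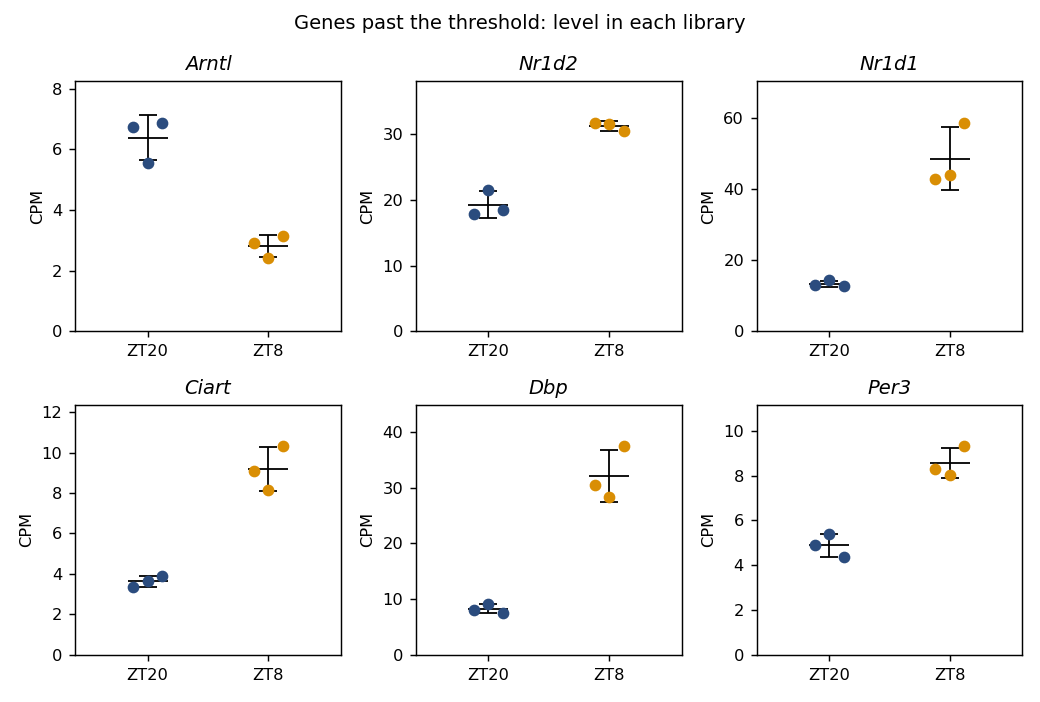
Level (CPM, linear axis from 0) of the 6 genes past the threshold in each library, ZT20 left and ZT8 right; points are libraries, and lines and bars are the mean ± SD of 3. Arntl averaged 6.39 CPM at ZT20 and 2.83 CPM at ZT8, while the other 5 genes were lower in each ZT20 library than in any ZT8 library.

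Arntl (ENSMUSG00000055116.8, GRCm38 chromosome 7, 113207465 to 113314126, plus strand), the gene of BMAL1, had 6.75, 5.54 and 6.88 CPM in the ZT20 libraries, against 2.90, 2.43 and 3.14 CPM in the ZT8 libraries. Each ZT20 library was thus above each ZT8 library, and the fold change was 2.26 (log2 1.18 ± 0.11, SE; edgeR adjusted p = 0.00843). Its partners were measured beside it. Clock had 14.2, 16.03 and 16.8 CPM in the ZT20 libraries, against 16.1, 16.8 and 16.2 CPM in the ZT8 libraries, with overlapping groups and a log2 fold change of -0.06 ± 0.10. Npas2, which can take the place of Clock, had 3.19, 3.05 and 3.46 CPM in the ZT20 libraries, against 2.82, 2.93 and 2.89 CPM in the ZT8 libraries. These Npas2 groups did not overlap, but the log2 fold change of 0.17 ± 0.09 did not pass (adjusted p = 0.95). Arntl2, a close relative of Arntl, had a log2 fold change of 0.08 ± 0.09. Of the ROR genes, Rora had -0.16 ± 0.10, with an unadjusted p above 0.05, and Rorb was too low to be tested. Of the 6 activators and RORs tested, 1 rose and none fell, with 1 at an unadjusted p under 0.05 and a median log2 fold change of 0.13.

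Both REV-ERB genes and Ciart fell at ZT20. Nr1d1 (ENSMUSG00000020889.11, chromosome 11, 98767932 to 98775333, minus strand), the gene of REV-ERB alpha, had 12.9, 14.4 and 12.8 CPM in the ZT20 libraries, against 42.8, 44 and 58.7 CPM in the ZT8 libraries. That is a fall of 1.86 ± 0.19 on the log2 scale, a level 3.64-fold higher in ZT8 than in ZT20 (adjusted p = 0.00843). Nr1d2 (ENSMUSG00000021775.11, chromosome 14, 18204054 to 18239127, minus strand), the gene of REV-ERB beta, had 17.8, 21.6 and 18.5 CPM in the ZT20 libraries, against 31.8, 31.6 and 30.5 CPM in the ZT8 libraries. Its groups were also apart, with a fall of 0.70 ± 0.07 on the log2 scale (adjusted p = 0.00843). Ciart (ENSMUSG00000038550.10, chromosome 3, 95878503 to 95882251, minus strand), whose product represses CLOCK and BMAL1, had 3.36, 3.63 and 3.90 CPM in the ZT20 libraries, against 9.08, 8.14 and 10.3 CPM in the ZT8 libraries. Ciart fell by 1.34 ± 0.15 on the log2 scale (adjusted p = 0.0135).

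Among the period genes, Per3 passed and the other two did not. Per3 (ENSMUSG00000028957.12, chromosome 4, 151003652 to 151044665, minus strand) had 4.89, 5.41 and 4.38 CPM in the ZT20 libraries, against 8.30, 8.04 and 9.30 CPM in the ZT8 libraries, a fall of 0.80 ± 0.11 on the log2 scale (adjusted p = 0.0421). Per2 had 3.33, 4.39 and 3.68 CPM in the ZT20 libraries, against 5.34, 5.59 and 5.47 CPM in the ZT8 libraries. Per1 had 10.2, 17.7 and 16.5 CPM in the ZT20 libraries, against 22.4, 23.5 and 19 CPM in the ZT8 libraries. The lowest ZT8 library was above the highest ZT20 library for both. The log2 fold changes were -0.52 ± 0.11 for Per2 and -0.54 ± 0.17 for Per1, with edgeR adjusted p of 0.449 and 0.845. DESeq2 called Per2 (adjusted p = 0.0212). Per1 varied most within ZT20, where replicate 1 was well below the others. Of the cryptochromes, whose products repress CLOCK and BMAL1 directly, Cry1 had a log2 fold change of 0.20 ± 0.06 with groups that did not overlap (adjusted p = 0.821), and Cry2 had -0.05 ± 0.06 with groups that did. Bhlhe40, an E-box-binding repressor, had -0.31 ± 0.07 (adjusted p = 0.454 in edgeR and 0.0144 in DESeq2, which called it), and its relative Bhlhe41 -0.13 ± 0.09. Nfil3, the repressor at D-box sites, had a positive value of 0.22 ± 0.07 (adjusted p = 0.877). Of the 11 repressors tested, 4 fell and none rose, 7 were lower and 2 higher at an unadjusted p under 0.05, and the median log2 fold change was -0.52. At that p 2.41% of all genes tested were lower and 2.87% higher.

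Of the 3 PAR bZIP factors Dbp fell, and all 3 were lower at an unadjusted p under 0.05, with a median log2 fold change of -0.42. Dbp (ENSMUSG00000059824.12, chromosome 7, 45705088 to 45710203, plus strand) had 8.04, 9.16 and 7.57 CPM in the ZT20 libraries, against 30.5, 28.4 and 37.4 CPM in the ZT8 libraries. This was the widest fold change of the 6 genes, a fall of 1.96 ± 0.24 on the log2 scale, with the level 3.89-fold higher in ZT8 than in ZT20 (adjusted p = 0.0352). Tef had 49.8, 53.5 and 55.3 CPM in the ZT20 libraries, against 65.95, 65.02 and 63.6 CPM in the ZT8 libraries. Hlf had 3.92, 3.94 and 3.89 CPM in the ZT20 libraries, against 5.23, 4.36 and 6.09 CPM in the ZT8 libraries. Neither passed in edgeR (log2 -0.29 ± 0.05 for Tef and -0.42 ± 0.11 for Hlf, adjusted p = 0.174 and 0.716), although their ZT20 libraries lay below all ZT8 libraries. DESeq2 called Tef (adjusted p = 2.28e-05). Over the 20 clock genes tested, the groups did not overlap for 4 with higher ZT20 levels and 11 with lower ones. Among all genes tested, the groups were apart with higher ZT20 levels for 5.35% and with lower ones for 4.54%.

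**Figure D2:**
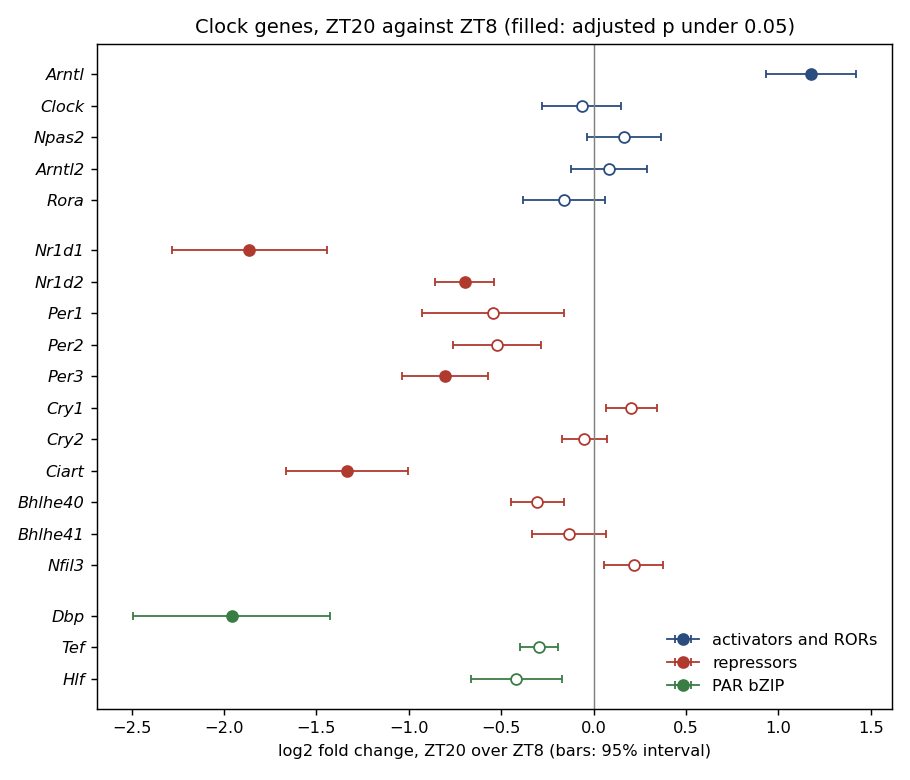
Log2 fold change, ZT20 over ZT8, of 19 clock genes, with 95% intervals, grouped by role; filled points passed an adjusted p of 0.05. Arntl stands to the right at 1.18, Nr1d1 and Dbp at the left end at -1.86 and -1.96, and Clock and Cry2 close to 0.

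The calls of these 6 genes were not equally stable. Arntl lost its call in 1 of 12 fits that left out a library (ZT20 replicate 3), Nr1d2 in 2 (ZT8 replicate 1 and ZT20 replicate 3) and Nr1d1 in 2 (ZT20 replicates 1 and 3). Ciart lost it in 4, those without ZT8 replicate 1 or any of the ZT20 libraries. Dbp lost it in 8 and kept it without ZT2 replicate 2, ZT2 replicate 3, ZT14 replicate 1 or ZT14 replicate 3. Per3 lost it in 10 and kept it without ZT2 replicate 2 or 3. Without ZT20 replicate 3 no gene was called (edgeR; 1348 genes at an unadjusted p under 0.05), without ZT8 replicate 1 there were 2 and without ZT20 replicate 1 there were 3. Without ZT2 replicate 3 there were 10, the added genes being Alas2, Hba-a1, Hba-a2 and Ints5. DESeq2 called 68 genes, among them these 6, limma-trend called the same 6, and edgeR on the 6 libraries alone called 2, Nr1d1 and Dbp. Without the library richest in muscle RNA at each time, edgeR called 5 genes, of which 3 were among the 6 (Nr1d1, Ciart and Dbp). Dbp was also not called with no filter or on approximate reads, where edgeR called the other 5.

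Promoter sequence was read for the 3 called genes whose RefSeq window held a motif of the loop; a window runs from 250 bases before the start site to 50 bases after it. The motifs searched on both strands were the E-box CACGTG, the D-box TTACGTAA or TTATGTAA, and the RRE core TAGGTCA or TGGGTCA, shown in capitals below, and no match overlapped another. For Arntl it is chr7:113207261-113207560 of GRCm38.p6, plus strand, the second of 2 windows, with 1 RRE core that begins at position 31 after the start site (counted as 1).
Arntl: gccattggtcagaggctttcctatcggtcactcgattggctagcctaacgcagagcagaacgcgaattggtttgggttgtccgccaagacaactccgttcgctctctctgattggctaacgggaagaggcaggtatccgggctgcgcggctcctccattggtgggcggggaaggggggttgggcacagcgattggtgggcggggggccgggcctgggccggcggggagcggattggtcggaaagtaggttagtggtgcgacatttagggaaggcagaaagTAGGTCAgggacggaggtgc
For Ciart it is chr3:95882179-95882478, minus strand, with 3 E-boxes that begin 116, 58 and 44 bases before the start site.
Ciart: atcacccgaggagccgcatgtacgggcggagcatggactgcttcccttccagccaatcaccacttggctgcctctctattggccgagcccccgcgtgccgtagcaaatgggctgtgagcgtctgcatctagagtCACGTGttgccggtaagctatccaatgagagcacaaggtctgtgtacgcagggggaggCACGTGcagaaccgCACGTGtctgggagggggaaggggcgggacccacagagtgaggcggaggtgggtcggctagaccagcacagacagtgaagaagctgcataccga
For Per3 it is chr4:151044616-151044915, minus strand, with 2 D-boxes that begin 205 and 158 bases before the start site.
Per3: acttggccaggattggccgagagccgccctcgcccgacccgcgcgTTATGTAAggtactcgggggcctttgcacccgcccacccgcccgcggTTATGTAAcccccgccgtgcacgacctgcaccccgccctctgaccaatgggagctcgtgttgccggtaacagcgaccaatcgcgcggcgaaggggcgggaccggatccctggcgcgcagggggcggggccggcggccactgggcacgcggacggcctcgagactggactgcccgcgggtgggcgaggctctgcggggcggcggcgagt
Of the 32851 windows in the RefSeq table, 7.15% held the E-box, 1.06% a D-box and 6.45% an RRE core. The windows of Nr1d1, Nr1d2 and Dbp held none of these letters, nor did the first window of Arntl. Over the 18 clock genes with a window in the table, 5 held an E-box, 1 a D-box, 2 an RRE core and 10 none. These matches describe sequence alone.

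Transcripts of neutrophils and red cells were at lower levels in the ZT20 libraries, although none of these genes was called in edgeR. Of the 13 neutrophil genes, which encode granule proteins and receptors of these white blood cells, all 13 had a log2 fold change below 0, with a median of -1.17. At an unadjusted p under 0.05, 12 of them were lower, where 2.41% of all genes were. For 12 every ZT20 library lay below every ZT8 library, where 4.54% of all genes did. DESeq2, which called 68 of all 25809 genes tested, called 5 of the 13, and limma-trend called 0. S100a8 had 8.49, 5.87 and 6.81 CPM in the ZT20 libraries, against 13.5, 17.2 and 16.9 CPM in the ZT8 libraries. S100a9, its partner in calprotectin, had 16.6, 8.77 and 10.1 CPM in the ZT20 libraries, against 28.7, 40.1 and 30.6 CPM in the ZT8 libraries. For both, every ZT20 library was below every ZT8 library, with log2 fold changes of -1.17 ± 0.27 and -1.49 ± 0.36 (edgeR adjusted p = 0.643 and 0.703). Ngp, a granule protein, had 9.56, 4.97 and 5.97 CPM in the ZT20 libraries, against 11.9, 16.1 and 18.3 CPM in the ZT8 libraries. The collagenase gene Mmp8 had 0.479, 0.236 and 0.281 CPM in the ZT20 libraries, against 1.01, 1.72 and 1.28 CPM in the ZT8 libraries. Its log2 fold change was -2.01 ± 0.38, at levels under 2 CPM in every library. Elane was the member above 0.05, at -0.33.

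Genes of red cells also stood lower at ZT20 for 9 of the 11 tested and higher for 2, with log2 fold changes between -1.43 and 0.60. Hba-a1, an alpha-globin gene, had 432, 329 and 297 CPM in the ZT20 libraries, against 804, 757 and 841 CPM in the ZT8 libraries. Hbb-bs, a beta-globin gene, had 389, 268 and 211 CPM in the ZT20 libraries, against 724, 721 and 726 CPM in the ZT8 libraries. Alas2, the first enzyme of haem synthesis in red cell precursors, had 3.48, 2.41 and 2.40 CPM in the ZT20 libraries, against 7.56, 7.55 and 7.20 CPM in the ZT8 libraries. In these 3 genes every ZT20 library was below every ZT8 library, with log2 fold changes of -1.18 ± 0.23, -1.32 ± 0.29 and -1.43 ± 0.23 and edgeR adjusted p of 0.449, 0.593 and 0.174. Hba-a1 and Hba-a2, and likewise Hbb-bs and Hbb-bt, are almost identical in sequence, and how reads were divided between such copies is uncertain. Of the 11 erythroid genes tested, 6 were lower at an unadjusted p under 0.05 (the 4 globin genes, Alas2 and the anion exchanger gene Slc4a1), the others were not, the median was -1.06, and 0 were called by edgeR or limma-trend and 5 by DESeq2. Over all genes tested, 2.41% were lower at that p, and DESeq2 called 68 of 25809.

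Summed levels place these differences beside those of other cells. The neutrophil genes summed to 52.6, 32.7 and 36.6 CPM at ZT20, against 81.1, 115.0 and 96.1 CPM at ZT8. The erythroid genes summed to 1265.5, 934 and 814 CPM at ZT20, against 2306, 2246 and 2440 CPM at ZT8. In the 6 libraries of ZT2 and ZT14 the sums ran from 72.5 to 169 CPM for neutrophil genes and from 1698 to 4080 CPM for erythroid genes, so the 3 ZT20 libraries were the lowest of all 12 in both. Sums for other immune cells overlapped: the 14 T and B cell genes summed to 70.4 to 78.4 CPM at ZT20 and to 69.0 to 86.6 CPM at ZT8, and the 16 macrophage genes to 106 to 125 CPM at ZT20 and to 95.7 to 151 CPM at ZT8. Endothelial genes summed to 373 to 382 CPM at ZT20 and to 362 to 400.4 CPM at ZT8. The sums are given as values, with no test. Muscle sums overlapped between the times, and without the library richest in them at each time the list medians were -1.35 for neutrophil and -0.82 for erythroid genes, and over all settings they lay between -1.35 and -1.07 and between -1.20 and -0.76. None of the sources used here says whether blood was flushed from the animals, and the part of residual blood in these values was not tested.

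**Figure D3:**
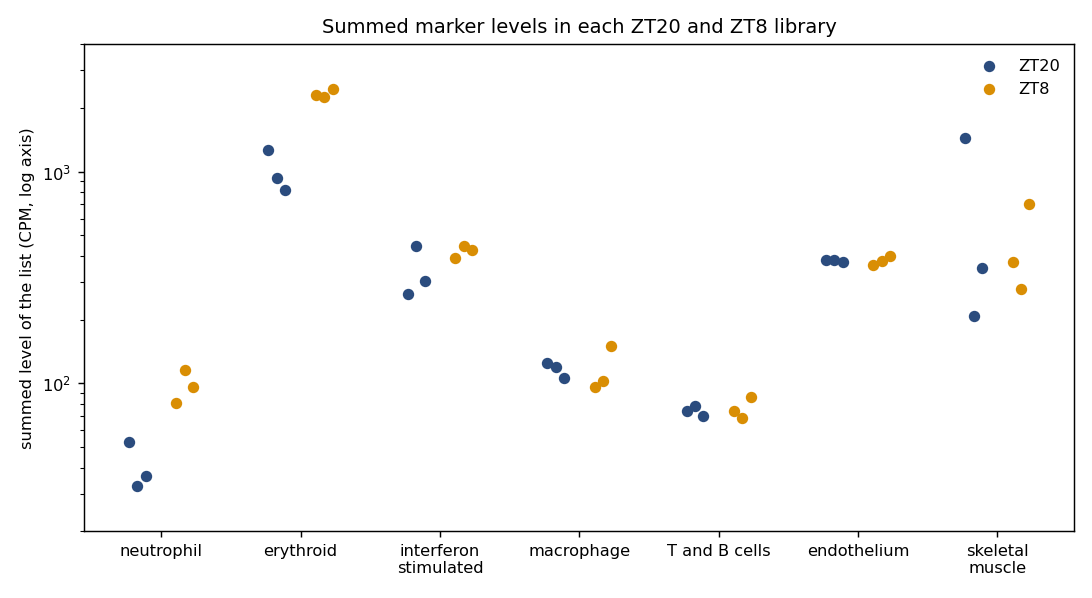
Summed level (CPM, log axis) of marker lists in each library, ZT20 left of ZT8; each point is 1 library. Neutrophil sums of 32.7 to 52.6 CPM at ZT20 lie below those of 81.1 to 115.0 CPM at ZT8 and erythroid sums are likewise apart, while macrophage, T and B cell, endothelial, muscle and interferon-stimulated sums overlap.

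Interferon-stimulated genes, which antiviral signalling switches on, had values on the same side, with 1 library apart. Of 19 tested, 18 had a log2 fold change below 0 and 7 were lower at an unadjusted p under 0.05 (2.41% of all genes tested were), with a median of -0.39 and 0 called by edgeR, limma-trend or DESeq2. Ifi44 had 1.69, 2.92 and 2.15 CPM in the ZT20 libraries, against 3.55, 4.82 and 4.23 CPM in the ZT8 libraries, a log2 fold change of -0.90 ± 0.26 (edgeR adjusted p = 0.787). Isg15, a ubiquitin-like modifier, had 7.53, 15.4 and 9.53 CPM in the ZT20 libraries, against 14.6, 14.6 and 14.4 CPM in the ZT8 libraries. In Isg15 and in the summed level, ZT20 replicate 2 was as high as the ZT8 libraries: the list summed to 265, 447 and 305 CPM at ZT20, against 391, 446 and 428 CPM at ZT8. Over the settings the median ran from -0.62 to -0.19. For ZT14 over ZT2 the median of this list was -0.36, close to the -0.39 here, so lower values were not particular to ZT20 against ZT8. Chemokine and cytokine receptor genes had 2 of 18 lower and 1 higher at that p, a median of -0.06 and 0 called by the 3 tools.

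No gene of the sensory neuron lists passed the test. Of 201 genes tested in 11 neuronal lists, 0 were called by edgeR, limma-trend or DESeq2, 6 were higher and 8 lower at an unadjusted p under 0.05, and the median log2 fold change was -0.016. Among all genes tested, 2.87% were higher and 2.41% lower at that p in edgeR. The 95% interval lay within 1.5-fold either way for 164 of the 201. Scn10a, the sodium channel Nav1.8 of nociceptors, had 139, 165 and 152 CPM in the ZT20 libraries, against 158, 177 and 144 CPM in the ZT8 libraries. Trpv1, the heat and capsaicin receptor, had 122, 117 and 117 CPM in the ZT20 libraries, against 112, 109 and 122 CPM in the ZT8 libraries. Calca, which encodes the peptide CGRP, had 2529.6, 2889 and 2409 CPM in the ZT20 libraries, against 2763, 3032 and 2373 CPM in the ZT8 libraries. In these 3 genes the libraries overlapped, with log2 fold changes of -0.07 ± 0.08, 0.05 ± 0.09 and -0.06 ± 0.08 (SE). Scn9a (Nav1.7) had -0.13 ± 0.08, Scn11a (Nav1.9) -0.10 ± 0.07, the irritant receptor Trpa1 -0.11 ± 0.12, the touch channel Piezo2 -0.22 ± 0.11 and the substance P gene Tac1 0.10 ± 0.08, none with an unadjusted p under 0.05.

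Some neuronal genes had groups that did not overlap, without passing, but no more often than genes at large. All ZT20 libraries were above all ZT8 libraries for 8 of the 201, where 5.35% of all genes tested were. They were below them for 7 of the 201, where 4.54% of all genes were. Cacnb3, a beta subunit of calcium channels, had 280.5, 286 and 283 CPM in the ZT20 libraries, against 215, 228 and 228 CPM in the ZT8 libraries. This is a log2 fold change of 0.34 ± 0.09 at a high level (adjusted p = 0.739). Cysltr2, a leukotriene receptor of itch neurons, had 12.1, 14.8 and 12.9 CPM in the ZT20 libraries, against 19.2, 20 and 17.1 CPM in the ZT8 libraries. Mrgprb4, a marker of neurons that sense stroking in the mouse, had 11.7, 9.85 and 11.4 CPM in the ZT20 libraries, against 14.01, 16.9 and 14.2 CPM in the ZT8 libraries. Both stood lower at ZT20, with log2 fold changes of -0.50 ± 0.14 and -0.45 ± 0.15 (adjusted p = 0.787 and 0.852). The other genes at an unadjusted p under 0.05 were Hcn3 (0.11 ± 0.05), Adcyap1 (0.15 ± 0.07), Adra2a (0.32 ± 0.13), Ntf3 (0.45 ± 0.15) and Runx3 (0.20 ± 0.08) on the higher side. On the lower side they included Scn1a (-0.32 ± 0.13), Trpc6 (-0.22 ± 0.07), Calcb (-0.30 ± 0.13), Smr2 (-0.37 ± 0.16) and Anxa1 (-0.40 ± 0.17). The injury-induced gene Sprr1a varied widely within each time, with 3.51, 16.4 and 9.09 CPM in the ZT20 libraries, against 12.5, 15.01 and 1.31 CPM in the ZT8 libraries. Atf3, a transcription factor of injured neurons, had a log2 fold change of 0.00 ± 0.30.

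By kind of neuronal gene, the medians were -0.018 for 13 sodium channel genes, -0.045 for 35 potassium and HCN channel genes, -0.015 for 15 calcium channel genes and -0.040 for 21 sensory transducers. They were 0.099 for 15 peptides, -0.086 for 20 nociceptor and itch markers, 0.016 for 27 opioid, cannabinoid and prostaglandin genes and -0.037 for 14 neurotrophin and GDNF receptors. They were 0.0046 for 15 touch and proprioceptor markers, 0.032 for 18 pan-neuronal genes and 0.0012 for 16 injury-induced genes. The peptides were the least closely measured, with 6 of 15 intervals within 1.5-fold, against 18 of 18 for the pan-neuronal genes.

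**Figure D4:**
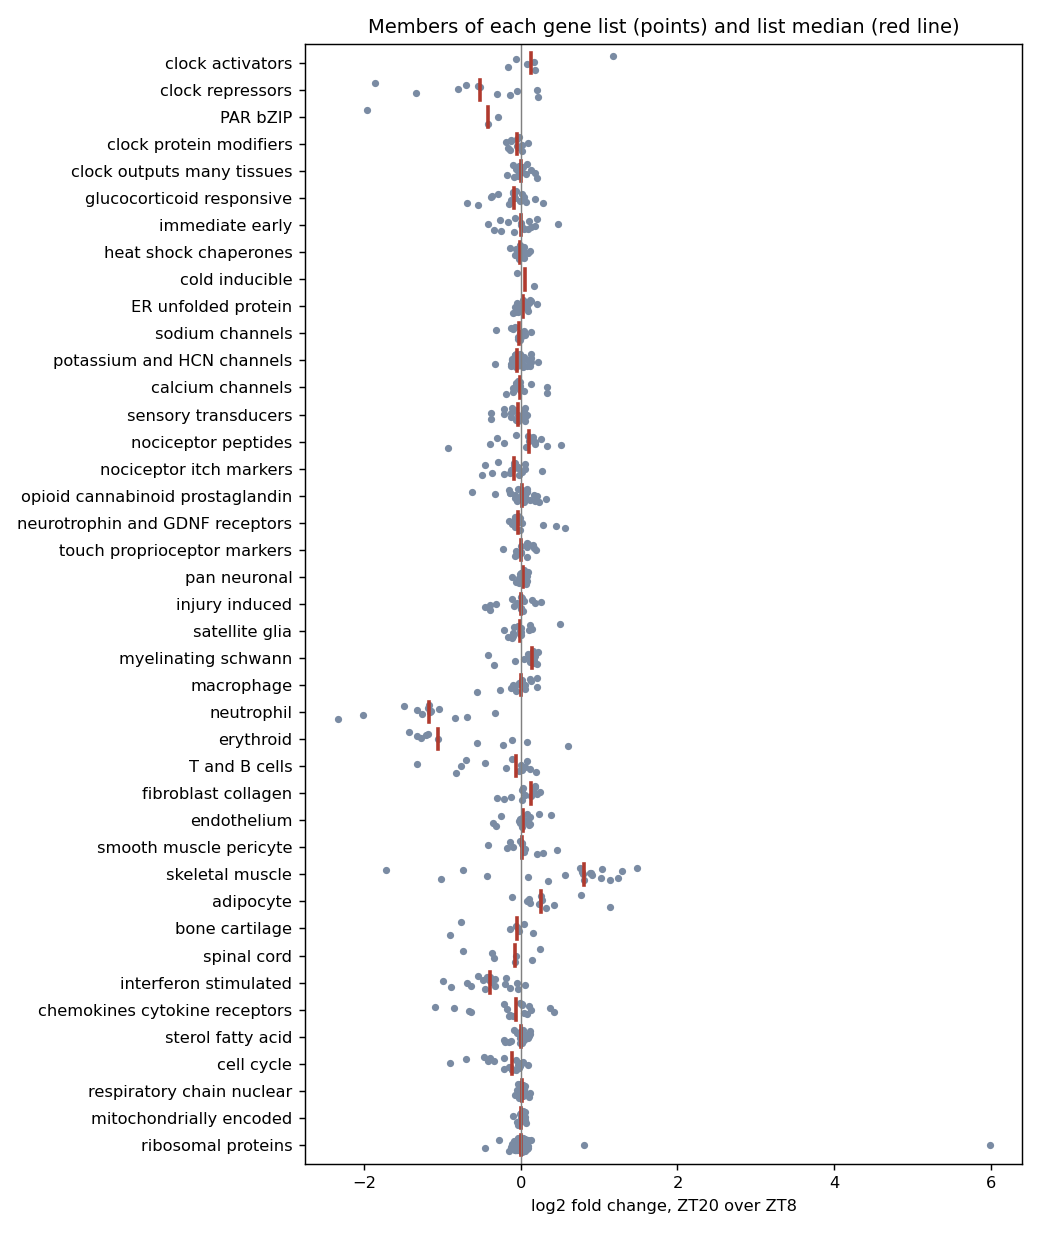
Log2 fold change, ZT20 over ZT8, of every tested member of 41 gene lists (points) with the median of each list (red line). Neutrophil (median -1.17) and erythroid (-1.06) genes lie left of 0, skeletal muscle genes spread on both sides with a median of 0.80, and neuronal lists crowd around 0; the ribosomal point near 6 is Rpl39l, which was at 0 in 5 of the 6 libraries.

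Among glial genes, Fabp7 had the lowest p. Fabp7, a fatty acid-binding protein of satellite glia, had 453, 436 and 477 CPM in the ZT20 libraries, against 328, 291 and 347 CPM in the ZT8 libraries. All 3 ZT20 libraries were above all ZT8 libraries, with a log2 fold change of 0.50 ± 0.08 (adjusted p = 0.149). Of the 16 satellite glia genes 0 were called by edgeR or limma-trend and 1 by DESeq2, 1 was higher and 1 lower at an unadjusted p under 0.05 (Fabp7 and the glutamine synthetase gene Glul, -0.09 ± 0.04), and the median was -0.0094. All genes tested had 2.87% higher and 2.41% lower at that p, with 68 of 25809 called by DESeq2. The 15 myelinating Schwann cell genes had a median of 0.15, with 0 called by edgeR, limma-trend or DESeq2 and 1 higher and 1 lower at that p; the myelin protein gene Pmp22 had 0.17 ± 0.06 with groups apart, and the transcription factor gene Egr2 -0.41 ± 0.14.

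Over all genes, the uncalled protein-coding genes of at least 5 CPM with the lowest p on the higher side were, after Fabp7, Rtl8a (0.29 ± 0.05, a retrotransposon-derived gene), Cmtm5 (0.28 ± 0.05), Trp53i11 (0.40 ± 0.08) and Ddn (0.49 ± 0.10, dendrin), then the actin-bundling gene Fscn1 (0.40 ± 0.08), Gpr137 (0.24 ± 0.05) and the endothelial gene Ecscr (0.35 ± 0.08). On the lower side Dock9, an exchange factor for the small GTPase CDC42, came first. Dock9 had 19.95, 21.1 and 22.6 CPM in the ZT20 libraries, against 28.4, 35.2 and 34.3 CPM in the ZT8 libraries, a log2 fold change of -0.62 ± 0.10 (adjusted p = 0.155). After it, beside Tef, Alas2 and Hba-a1, came Lgals3bp (-0.31 ± 0.06), Slco1a4 (-0.25 ± 0.05), Tial1 (-0.22 ± 0.05) and Ube2d2a (-0.25 ± 0.05). In edgeR adjusted p ran from 0.149 to 0.474 in these 16 genes, and limma-trend called none of them. DESeq2 called all 16, with adjusted p from 1.31e-06 (Fabp7) to 0.0232 (Ecscr). The tools thus differ on these genes, and they stand as values.

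Endothelial genes pointed both ways. Cldn5, a tight junction protein of barrier endothelium, had 34.97, 29.1 and 33.3 CPM in the ZT20 libraries, against 23.1, 23.8 and 27.3 CPM in the ZT8 libraries. Its log2 fold change was 0.39 ± 0.09 (adjusted p = 0.623), against -0.25 ± 0.05 for the organic anion transporter Slco1a4 and -0.31 ± 0.11 for Ly6c1. Of the 16 endothelial genes 0 were called by edgeR or limma-trend and 2 by DESeq2, 2 were higher and 2 lower at an unadjusted p under 0.05, and the median was 0.025. Over all genes tested, 2.87% were higher and 2.41% lower at that p, and DESeq2 called 68 of 25809.

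No gene of the lists for hormone, activity and stress responses passed. Of 19 glucocorticoid-responsive genes, 2 were higher and 3 lower at an unadjusted p under 0.05, with a median of -0.085; Fkbp5 had -0.06 ± 0.08 and Sgk1 -0.10 ± 0.12, while Klf9, also a clock output in other tissues, had -0.38 ± 0.13 with groups apart. Of 17 immediate early genes, which neuronal activity switches on, 1 was higher and 3 were lower, with a median of 0.0063; Fos had -0.07 ± 0.17, Egr3 0.47 ± 0.16, Junb -0.27 ± 0.09 and Dusp1 -0.25 ± 0.08. Of 16 heat shock genes none reached that p (median -0.011; Hspa1b -0.02 ± 0.10), nor did the cold-inducible Cirbp (-0.05 ± 0.10) and Rbm3 (0.16 ± 0.13). Of 19 genes of the unfolded protein response 1 was higher (Atf4, 0.10 ± 0.04; median 0.026). Of the 12 genes that modify clock proteins 1 was lower (median -0.050), and of 14 clock outputs of many tissues 2 were higher (Cdkn1a, 0.18 ± 0.06, and Dtx4, 0.21 ± 0.09; median -0.0039). No member of these lists was called by edgeR, limma-trend or DESeq2. At an unadjusted p under 0.05, 2.87% of all genes tested were higher and 2.41% lower.

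Housekeeping and metabolic lists had medians close to 0. The medians were 0.0077 for 24 sterol and fatty acid genes (3 higher at an unadjusted p under 0.05, Fdps, Msmo1 and Srebf1), 0.013 for 30 nuclear genes of the respiratory chain (0 either way) and 0.0071 for 13 mitochondrially encoded genes (1 lower, mt-Nd3). For 79 ribosomal protein genes the median was -0.0036, with 3 lower, of which Rps18 (-0.46 ± 0.11) was called by DESeq2. Over all genes tested, 2.87% were higher and 2.41% lower at that p, and DESeq2 called 68 of 25809. The 20 cell cycle genes, at low levels, had a median of -0.12 with Cdk1 (-0.70 ± 0.27) and Aurkb (-0.91 ± 0.40) lower. Lists of neighbouring tissues had no member at an unadjusted p under 0.05 in edgeR: spinal cord (median -0.071), bone and cartilage (-0.049), fat cells (0.25) and skeletal muscle (0.80). Nor did the lists of some other cell types: macrophages (0.0013), vascular smooth muscle with pericytes (0.016), fibroblasts (0.13) and T and B cells (-0.064). Over the settings the muscle median ran from -1.37 (without ZT20 replicate 1) to 1.57 (without ZT8 replicate 3). None of the lists in this paragraph held a gene called by edgeR or limma-trend.

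ZT14 against ZT2 is the other pair of times 12 h apart and shares no library with ZT20 and ZT8, so whether a gene changed differently was tested as the difference of both log2 fold changes. By edgeR 13 genes passed, 0.0504% of those tested, 4 above 0 and 9 below, and they held all 6 genes called in ZT20 against ZT8. Nr1d1, which was 3.64-fold higher in ZT8 than in ZT20, averaged 26.6 ± 6.88 CPM at ZT14 and 26.98 ± 4.66 CPM at ZT2 (SD, n = 3; log2 -0.02 ± 0.18, SE), a difference of -1.84 ± 0.26 (adjusted p = 0.0461). Arntl had 1.18 ± 0.11 for ZT20 over ZT8 and -1.24 ± 0.11 for ZT14 over ZT2, a difference of 2.42 ± 0.16 (adjusted p = 9.53e-05). Dbp, Ciart, Per3 and Nr1d2 fell here and had positive values of 1.05, 0.68, 0.68 and 0.26 for ZT14 over ZT2. Fmo2, a flavin-containing monooxygenase, had -0.18 ± 0.12 for ZT20 over ZT8 and 1.47 ± 0.13 for ZT14 over ZT2 (adjusted p of the difference 0.00445). Fabp7 had 0.50 ± 0.08 for ZT20 over ZT8 and -1.42 ± 0.08 for ZT14 over ZT2, and Per2 had -0.52 ± 0.11 and 0.88 ± 0.11. The rest were Slco1a4 and Tef, and also Spg21 and Sat1, which were named after their values were seen. DESeq2 called 81 differences, and without the library richest in muscle RNA at each time edgeR called 5. In the 12 fits that left out a library, the difference of Nr1d1 was lost in 9, all but those without ZT2 replicate 2, ZT14 replicate 1 or ZT14 replicate 3. Spg21 kept its call without ZT8 replicate 3 or ZT20 replicate 3 alone, and Sat1 without ZT14 replicate 1 or 3 alone. Tef lost it without ZT2 replicates 1 or 2, ZT14 replicates 2 or 3, or ZT20 replicate 2, Dbp without ZT20 replicate 1, and the other 8 in none of the 12. The list medians for ZT14 over ZT2 were -0.12 for neutrophil, 0.13 for erythroid and -0.36 for interferon-stimulated genes.

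**Figure D5:**
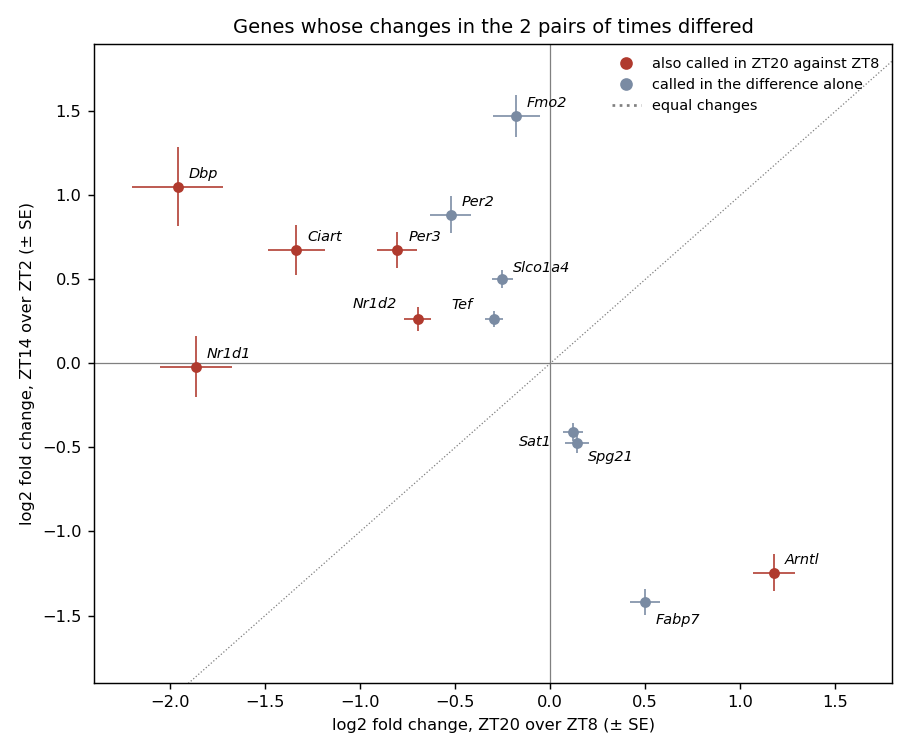
Log2 fold change of ZT20 over ZT8 (horizontal) and of ZT14 over ZT2 (vertical) with standard errors, for the 13 genes whose difference passed an adjusted p of 0.05; the dotted line marks equal changes. Red genes were also called in ZT20 against ZT8: Nr1d1 lies on the horizontal axis at -1.86, Arntl at the lower right, and Fmo2 high near the vertical axis at 1.47.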

How the data were processed

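Per the labels' protocols, ganglia were frozen, poly(A) RNA was selected on oligo(dT) beads after RNeasy extraction, and reads were paired and 150 bases long; none of the sources used here gives the strand protocol. Per the submitters' processing notes, HISAT2 2.2.1, StringTie 2.1.5 and build GRCm38.p6 were used. The authors deposited 1 table of estimated counts, not whole numbers, for 38942 rows: 38594 Ensembl genes and 348 assembled loci, left out here (0.213% to 0.225% of a library's total). In each library the commonest value above 10 (16.4 to 17.2) was shared by 69 to 95 genes of differing length, as values that follow coverage would be. Most of these genes were short. Their 10th percentile of length was 58.2 to 64.6 bases and their 90th 134 to 200 bases, over the 12 libraries. The reading as coverage rests on them, and how the values were made is not given. Approximate reads, 47.9 to 67.1 in units of 1000000 per library, were an alternative.

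Symbols came from GENCODE M21 (38462 IDs matched without their version). Values were rounded and tested with the quasi-likelihood test of edgeR 4.0.16 in R 4.3.3. Settings were filterByExpr, TMM, 1 coefficient for each of the 4 times, 12 libraries, 2-sided, Benjamini-Hochberg over 25809 genes. On counts simulated from the fitted model, the test recovered 8 of 50 genes changed 1.25-fold and 37 of 50 changed 1.5-fold, with 4 false calls. Such counts obey the model of the test, so this check does not cover values that follow coverage. Alternatives used limma 3.58.1 and DESeq2 1.42.0. Intervals cover 95%. The main fit did not pair libraries by replicate number, and a replicate block was an alternative. Marker sums are given as values only.

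The comparison, the gene lists and the named genes were chosen with earlier results of these data known, so the lists are no independent evidence. Named were all called genes, the 8 uncalled protein-coding genes of at least 5 CPM with the lowest p in each direction, all clock genes, of other lists members 1 to 3 and those at an unadjusted p under 0.05 (not all are printed), and up to 8 genes of the difference. A few list members are not reported here.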

Additional observations from a re-analysis of the deposited data

How the results depend on the processing

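The count of 6 genes for ZT20 against ZT8 stayed between 5 and 6 with RLE normalization, no filter, a mean of at least 1 CPM, limma-trend, approximate reads, no mitochondrial genes, no library richest in muscle RNA (3 of its 5 genes were among the 6) and, added after the data were seen, the assembled loci. It was 68 with DESeq2, 2 in the 6 libraries alone, and 0 to 10 with 1 library left out. The difference between the pairs of times gave 13 genes, 81 with DESeq2, 5 without the libraries richest in muscle RNA, and 9 to 16 with 1 library left out. With a replicate block the counts were 2 for ZT20 against ZT8 and 8 for the difference, and the 6 libraries alone with the replicate block gave 0 (870 genes at an unadjusted p under 0.05). Same-numbered ZT20 and ZT8 libraries had deviations that correlated at -0.063, 0.061 and -0.058, while ZT20 replicate 1 and ZT8 replicate 3 had 0.133. Deviations were taken from the mean of each time, so these values cannot tell whether equal numbers mark a pair or a batch. None of the 6 called genes changed direction in any of these settings, while 52 of the 191 named genes that were not called had a log2 fold change of the other sign in at least 1. The unknown read depth limits genes of low level.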
